A study of Homo sapiens with 6 samples.

Results

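The genes described here are ATF4, its partner transcription factors, genes known as targets of ATF4, and cytosolic tRNA synthetases that are often counted among those targets. The list names 32 genes, of which 31 were measured among the 18132 genes of the array. GPT2 had no probe set annotated with that symbol alone and was not analysed here. Members were found by symbol, and each was read by the brightest, over all 6 arrays, of its probe sets with a single symbol. They comprise 5 transcription factors, 6 stress effectors, 8 measured enzymes of amino acid and one-carbon metabolism, and 12 tRNA synthetases. Expression was measured in DLD1, an established human colorectal adenocarcinoma line kept in RPMI medium with 10% fetal bovine serum. One group of 3 samples had received lentivirus expressing a short hairpin RNA (shRNA) against the kinase gene CDKL1. The other group of 3 had received lentivirus expressing a control shRNA, so both groups carry a lentiviral hairpin. The labels give neither the hairpin sequences, nor their number, nor the time after infection.

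ATF4 is a basic leucine zipper (bZIP) transcription factor whose translation increases when kinases phosphorylate the initiation factor eIF2. PERK (gene EIF2AK3) responds to unfolded protein in the endoplasmic reticulum, GCN2 (EIF2AK4) to uncharged tRNA, PKR (EIF2AK2) to double-stranded RNA, and HRI (EIF2AK1) to haem shortage and mitochondrial stress. ATF4 pairs with C/EBP family proteins on a composite DNA element, the C/EBP-ATF response element, and raises genes for amino acid synthesis and uptake, tRNA charging and stress signalling. A tRNA synthetase joins an amino acid to its tRNA. Because ATF4 is controlled largely through translation, the level of its mRNA is not a measure of its protein.

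The core of the C/EBP-ATF response element, written TGATGNAA, was searched on both strands of promoter windows from 250 bases before to 50 bases after annotated start sites (RefSeq, GRCh38.p14). Of the 32 listed genes, 25 had a window in the table, and 10 of these (40.0%) held a match, against 4.46% of 27305 genes with a window. The search was not combined with any other motif. Windows for NUPR1, PSPH, SHMT2, ALDH1L2, GPT2, YARS1 and LARS1 were not used here. The 10 matching stretches are shown so that the element can be set beside the measured difference of each gene. Each line gives 30 bases, 5′ to 3′ on the strand of the gene, with the match in capitals. A match on the opposite strand reads TTNCATCA.
AARS1, chr16:70289675-70289704, minus strand: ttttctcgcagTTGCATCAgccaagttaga
CARS1, chr11:3057407-3057436, minus strand: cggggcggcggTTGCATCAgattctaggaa
GARS1, chr7:30594834-30594863, plus strand: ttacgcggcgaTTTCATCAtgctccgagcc
IARS1, chr9:92293692-92293721, minus strand: ttttcagcgcgTTGCATCAcctccgtgcgc
MARS1, chr12:57488053-57488082, plus strand: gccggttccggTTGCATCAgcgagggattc
NARS1, chr18:57621804-57621833, minus strand: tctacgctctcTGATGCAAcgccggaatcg
TARS1, chr5:33440956-33440985, plus strand: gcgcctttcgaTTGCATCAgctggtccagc
ASNS, chr7:97872458-97872487, minus strand: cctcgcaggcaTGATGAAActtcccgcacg
CEBPG, chr19:33374060-33374089, plus strand: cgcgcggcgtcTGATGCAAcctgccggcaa
CHAC1, chr15:40953251-40953280, plus strand: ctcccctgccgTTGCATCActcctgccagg

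Among the tRNA synthetases 7 of 10 with a window held a match, and 1 of 5 in each of the other groups did. The match began at position -187 in AARS1, -33 in GARS1, -13 in IARS1, -4 in MARS1 and -2 in CARS1, counted from the start site. In TARS1 and NARS1 it began at 3 and 15, just inside the transcript. In ASNS it began at -68, in CEBPG at -42 and in CHAC1 at -209. Of the other lists searched the same way, amino acid transporters tied to ATF4 had a match in 4 of 8 genes. Further ATF4-linked targets had it in 4 of 13. Other serine, glycine and folate enzymes, listed with some enzymes of other amino acids, had it in 2 of 13. Mitochondrial tRNA synthetases had it in 1 of 14 and the list of eIF2 kinases, eIF2 and linked genes in 1 of 16. The remaining cytosolic synthetases and complex scaffolds had it in 0 of 9 and the IRE1 and ATF6 targets in 0 of 13. The absence of these letters from a window says nothing of more distant sites.

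Deposited log2 values had array medians of 6.64 to 6.70. The targeted gene, CDKL1, had log2 levels of 4.17 ± 0.088 in CDKL1 shRNA arrays and 4.37 ± 0.18 in control shRNA arrays (SD, n = 3 each). These lie within 2.97 to 4.92, the means of the array's background probe sets holding 10 to 16 G or C bases, so the knockdown could not be checked and the groups keep their labels. EPCAM, KRT18, KRT19 and CDX2, which mark epithelial and colon lines, were at mean log2 levels of 10.67 or more in both groups, whereas VIL1 and LGALS4 were at 5.85 or less. Of the 9 markers of that list, KRT20 rose by 0.52 (adjusted p = 0.000746), VIL1 fell by 0.57 (adjusted p = 0.019) and 7 did not pass; the part of these in the results was not tested. None of 7 fibroblast, 5 leukocyte and 4 endothelial markers passed the test, and each had a mean log2 level of 6.75 or less. As a sign of RNA quality, the 3′ probe set of ACTB exceeded its 5′ one on the log2 scale by 1.52, 1.73 and 1.55 in CDKL1 shRNA arrays, against 1.40, 1.41 and 1.39 in control shRNA arrays. The same measure for GAPDH was 0.246, 0.297 and 0.282 in CDKL1 shRNA arrays, against 0.187, 0.199 and 0.222 in control shRNA arrays, and neither measure overlapped between the groups. Over all genes, 3040 of 18132 (16.8%) passed an adjusted p of 0.05 with limma. The count was 2026 without CDKL1 shRNA replicate 2, 1633 without CDKL1 shRNA replicate 3, 1839 without control shRNA replicate 2 and 1865 without control shRNA replicate 3. With the ACTB difference as a covariate it was 219.

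The design asks which of these genes differ between DLD1 cells with CDKL1 shRNA and those with control shRNA. They did not move as a block. The mTORC1 inhibitor gene DDIT4 and the pseudokinase gene TRIB3 had the largest falls, at 1.98-fold and 1.63-fold lower in CDKL1 shRNA arrays, and the transcription factor gene ATF5 had the largest rise, at 1.5-fold. Smaller falls were those of ASNS, PHGDH, AARS1 and MARS1, and smaller rises those of MTHFD2 and WARS1. Most fits with 1 array left out lost the MARS1 and WARS1 calls. With the ACTB difference as a covariate, DDIT4 and TRIB3 alone kept their calls. The mRNAs of ATF4 itself and of its targets DDIT3 and CHAC1 did not pass, while those of its targets TRIB3 and ASNS fell.

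In all, 9 of 31 members (29.0%) passed the test, 3 higher and 6 lower, against 8.97% of all genes called higher and 7.79% called lower. The members are bright genes: 28 of 31 lie above the median level. Of those 28, 9 (32.1%) were called, against 27.8% of all genes above the median level, so the share of called members was close to that of bright genes. The median log2 difference was 0.00 over the members and -0.01 over all genes. Differences of at least 1.5-fold were found for ATF5, DDIT4 and TRIB3, while 1.2% of all genes passed the test with such a difference. The arrays of the 2 groups did not overlap for 16 of 31 members, against 35.7% of all genes. Both the 1.2% and the 35.7% include dim genes and were not taken for bright genes alone, so neither comparison is matched for level. Within a group, the SD of a member over 3 arrays ran from 0.002 to 0.18 in log2 units (median 0.049). In bulk RNA, a change in every cell and a change in the share of cells that express a gene cannot be told apart. Values of different probe sets depend on their probes, so levels below are compared between groups only.

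**Figure D1:**
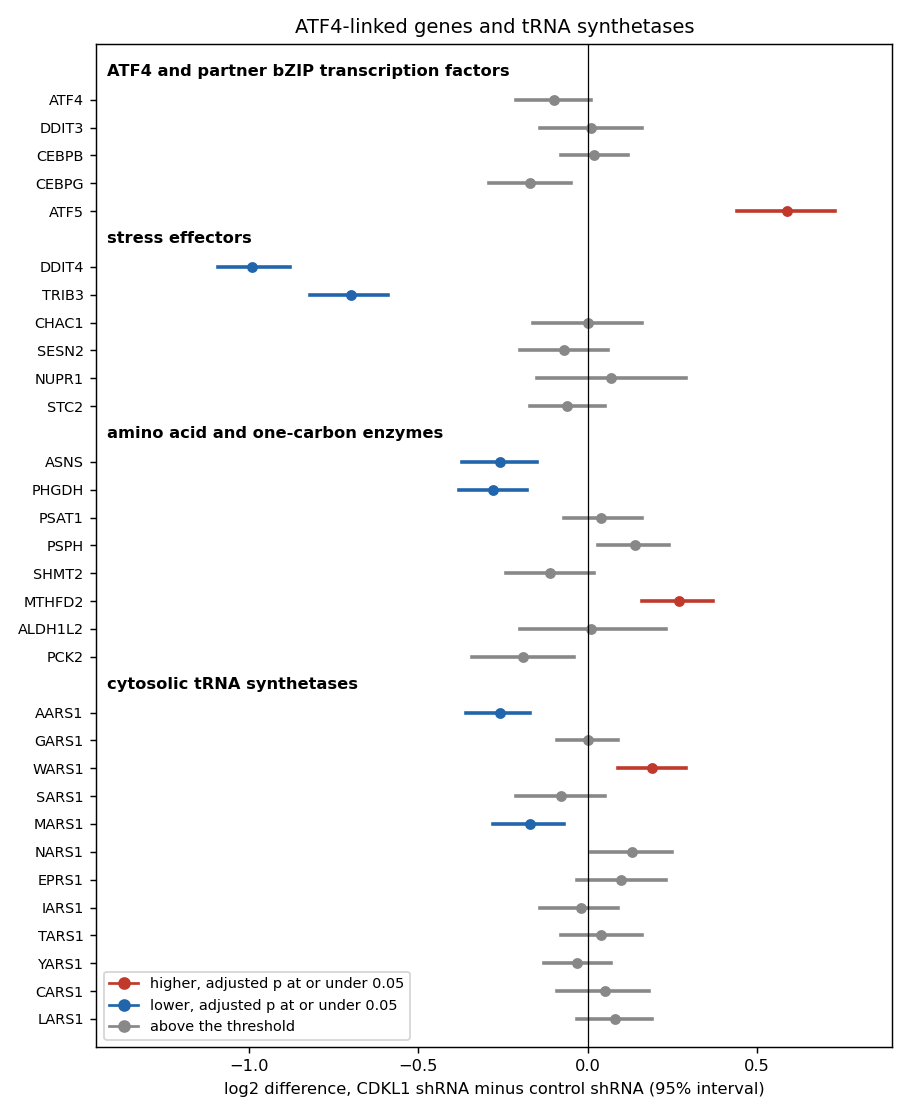
Log2 difference of each measured gene, CDKL1 shRNA minus control shRNA, with its 95% interval from limma (horizontal axis), 1 row per gene in 4 role groups. DDIT4 (-0.99) and TRIB3 (-0.70) lie far left of 0, ATF5 (0.59) far right, and most tRNA synthetases lie within 0.2 of 0.

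The transcription factors were read first. ATF4 had log2 levels of 12.79, 12.84 and 12.88 in CDKL1 shRNA arrays, against 12.90, 12.97 and 12.96 in control shRNA arrays. All 3 CDKL1 shRNA arrays thus lay below the controls, but the log2 difference of -0.10 (95% interval -0.21 to 0.01) did not pass (adjusted p = 0.189). DDIT3, which encodes the death-linked factor CHOP, differed by 0.01 (interval -0.14 to 0.16), and its groups overlapped. CEBPB, a C/EBP partner of ATF4, differed by 0.02 (interval -0.08 to 0.12). The small partner CEBPG, whose promoter match is shown above, had log2 levels of 9.46, 9.55 and 9.52 in CDKL1 shRNA arrays, against 9.75, 9.63 and 9.65 in control shRNA arrays. Its difference of -0.17 missed the threshold at an adjusted p of 0.0637.

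ATF5, an ATF4 relative that is itself controlled through translation and is linked to mitochondrial stress, was the member of this group that passed. It had log2 levels of 8.25, 8.17 and 8.10 in CDKL1 shRNA arrays, against 7.51, 7.56 and 7.68 in control shRNA arrays. The groups were well apart: the log2 difference was 0.59 (SE 0.062, adjusted p = 0.00133), a rise of 50.4% with an interval from 35.8% to 66.4%. All 4 of its probe sets passed, with log2 differences of 0.34 to 0.66. None of its 3 promoter windows held the searched motif.

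The stress effectors divided sharply. DDIT4, also called REDD1, restrains the growth kinase mTORC1 and is raised by ATF4, hypoxia and glucocorticoids. Its log2 levels were 10.73, 10.67 and 10.75 in CDKL1 shRNA arrays, against 11.67, 11.70 and 11.74 in control shRNA arrays. The difference of -0.99 (SE 0.046, adjusted p = 0.000105) was far larger than the spread within either group, and DDIT4 fell by 49.5%, with an interval of the change from -53.2% to -45.7%. DDIT4 has 1 probe set, so no other probe set can be set beside it. TRIB3, a target of ATF4 and CHOP that feeds back on both and binds AKT, had log2 levels of 10.26, 10.37 and 10.32 in CDKL1 shRNA arrays, against 11.06, 11.01 and 10.98 in control shRNA arrays. It fell by 0.70 (SE 0.049, adjusted p = 0.000304), and its second probe set fell by 0.58.

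The other 4 stress effectors did not pass. CHAC1, the glutathione-degrading enzyme gene, had log2 levels of 8.72, 8.85 and 8.80 in CDKL1 shRNA arrays, against 8.70, 8.92 and 8.75 in control shRNA arrays. These overlap fully, and the interval of its difference, -0.16 to 0.16, leaves out a change of the size seen for TRIB3. SESN2, a leucine sensor that restrains mTORC1, differed by -0.07, with its second probe set at 0.10. The chromatin-associated stress protein gene NUPR1 differed by 0.07 (interval -0.15 to 0.29), and STC2, a secreted glycoprotein gene, by -0.06. STC2 lay within the range of background controls, so little can be read from it.

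**Figure D2:**
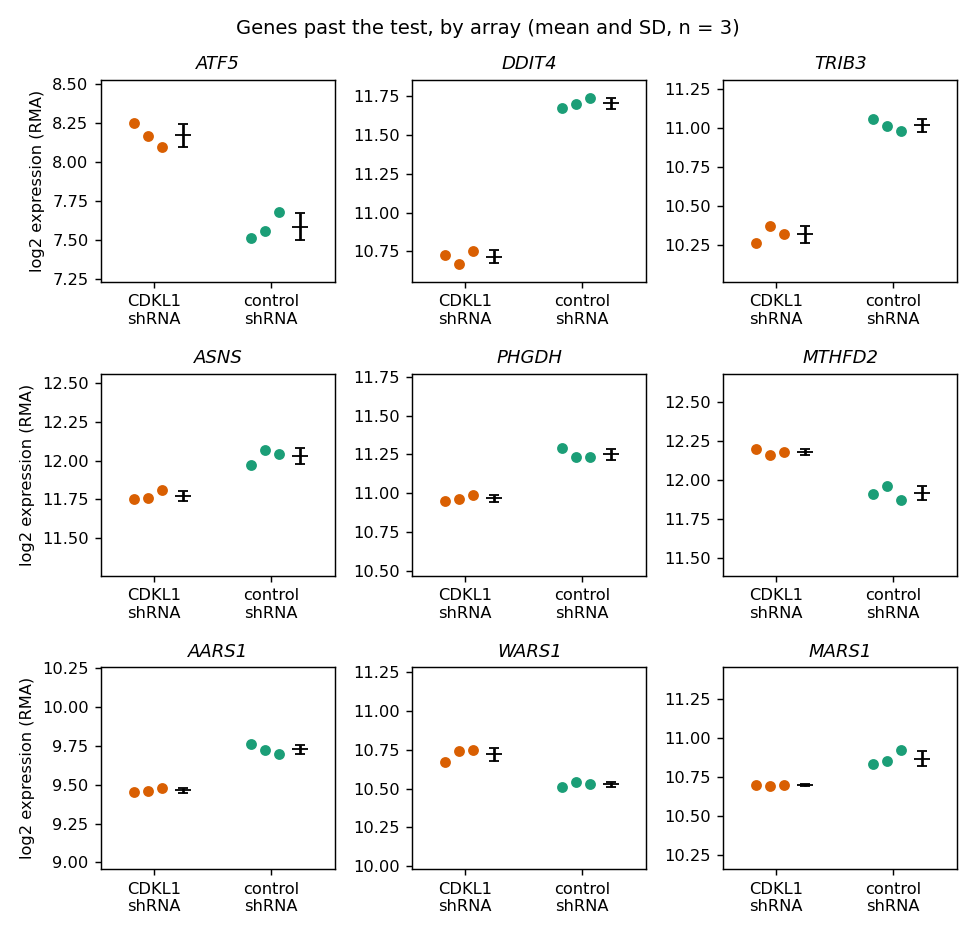
Log2 expression (RMA values, vertical axis) of the 9 members that passed the test, 1 point per array, CDKL1 shRNA left and control shRNA right, with mean and SD (n = 3) beside the points; every panel spans 1.3 log2 units. The groups do not overlap in any panel, and the gap is widest for DDIT4 and TRIB3.

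Of the 8 measured amino acid and one-carbon enzymes, 1 rose, 2 fell and 5 did not pass, with a median log2 difference of -0.05. The share called was 37.5%, against 16.8% of all genes and 27.8% of genes above the median level, where 7 of the 8 lie. ASNS, which makes asparagine, had log2 levels of 11.75, 11.76 and 11.81 in CDKL1 shRNA arrays, against 11.97, 12.07 and 12.04 in control shRNA arrays. It fell by 0.26 (SE 0.047, adjusted p = 0.0107), that is, it fell by 16.4%, and all 4 of its probe sets were called lower. Its promoter holds the variant TGATGAAA of the searched element. PHGDH, the first enzyme of serine synthesis from glycolysis, had log2 levels of 10.95, 10.96 and 10.99 in CDKL1 shRNA arrays, against 11.29, 11.23 and 11.23 in control shRNA arrays, a fall of 17.8% (adjusted p = 0.00505).

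The later enzymes of the same route did not follow PHGDH. PSAT1, the second enzyme, differed by 0.04 (interval -0.07 to 0.16), and its 8 probe sets were split, 4 positive and 4 negative, from -0.11 to 0.12. PSPH, the third, had log2 levels of 10.61, 10.53 and 10.55 in CDKL1 shRNA arrays, against 10.43, 10.47 and 10.38 in control shRNA arrays. Its groups did not overlap, but its difference of 0.14 missed the threshold (adjusted p = 0.0918), and 1 of its 3 probe sets was at -0.12. The difference between PHGDH and PSPH was not tested.

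In mitochondrial one-carbon metabolism, SHMT2 splits serine into glycine and a one-carbon unit that MTHFD2 then oxidises. MTHFD2 had log2 levels of 12.20, 12.16 and 12.18 in CDKL1 shRNA arrays, against 11.91, 11.96 and 11.87 in control shRNA arrays. It rose by 0.27 (SE 0.044, adjusted p = 0.00747), or 20.4%, and all 5 of its probe sets were positive, 4 of them called. SHMT2 differed by -0.11 (interval -0.24 to 0.02), with all 4 probe sets negative and none called. ALDH1L2, the mitochondrial formyl-folate dehydrogenase gene, was dim and differed by 0.01 (interval -0.20 to 0.23). PCK2, the mitochondrial form of phosphoenolpyruvate carboxykinase, differed by -0.19 and missed the threshold (adjusted p = 0.0832) although its groups did not overlap.

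Of the 12 cytosolic tRNA synthetases, 1 rose, 2 fell and 9 did not pass, and the median log2 difference was 0.02. The share called was 25.0%, against 16.8% of all genes and 27.8% of genes above the median level, where all 12 lie. AARS1, which charges alanine tRNA, had log2 levels of 9.45, 9.46 and 9.48 in CDKL1 shRNA arrays, against 9.76, 9.72 and 9.70 in control shRNA arrays. It fell by 0.26 (SE 0.042, adjusted p = 0.00632), or 16.7%, and its second probe set fell by 0.24. MARS1, for methionine, had log2 levels of 10.70, 10.69 and 10.70 in CDKL1 shRNA arrays, against 10.83, 10.85 and 10.92 in control shRNA arrays. Its fall of 0.17 (adjusted p = 0.0384) was the weakest call of the list. WARS1, for tryptophan, a gene that interferon gamma also induces, had log2 levels of 10.67, 10.74 and 10.75 in CDKL1 shRNA arrays, against 10.51, 10.54 and 10.53 in control shRNA arrays, a rise of 0.19 (adjusted p = 0.0245).

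The MARS1 and WARS1 calls were lost in 5 of the 6 fits with 1 array left out. MARS1 was called only without control shRNA replicate 1 (adjusted p = 0.0471). Its adjusted p was 0.0901, 0.0976 and 0.111 without CDKL1 shRNA replicates 1, 2 and 3, and 0.0905 and 0.127 without control shRNA replicates 2 and 3. WARS1 was called only without CDKL1 shRNA replicate 1 (adjusted p = 0.0336). Its adjusted p was 0.0787 and 0.0914 without CDKL1 shRNA replicates 2 and 3, and 0.0572, 0.0692 and 0.0768 without control shRNA replicates 1, 2 and 3. Their log2 differences in these fits stayed at -0.19 to -0.14 for MARS1 and 0.18 to 0.22 for WARS1. With their probe sets averaged, MARS1 was at -0.12 (adjusted p = 0.0982) and WARS1 at 0.09 (adjusted p = 0.17).

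The remaining 9 synthetases differed by -0.08 to 0.13 on the log2 scale. GARS1, for glycine, was the closest to equal: 12.49, 12.50 and 12.51 in CDKL1 shRNA arrays, against 12.48, 12.52 and 12.50 in control shRNA arrays, with an interval of -0.09 to 0.09. NARS1, for asparagine, had 12.75, 12.90 and 12.87 in CDKL1 shRNA arrays, against 12.69, 12.70 and 12.74 in control shRNA arrays. These did not overlap, but the difference of 0.13 did not pass (adjusted p = 0.146), and 1 of its 4 probe sets was at -0.12. EPRS1, the fused glutamate and proline enzyme, differed by 0.10, and LARS1, for leucine, by 0.08. CARS1 for cysteine (0.05), TARS1 for threonine (0.04), IARS1 for isoleucine (-0.02), YARS1 for tyrosine (-0.03) and SARS1 for serine (-0.08) all had overlapping groups.

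Set beside the promoter matches, the synthetases with a match ran from -0.26 for AARS1 to 0.13 for NARS1. The 3 with a window and no match were WARS1 (0.19), EPRS1 (0.10) and SARS1 (-0.08). Over all members with a window, a match was found in 3 of 6 that fell, 0 of 3 that rose and 7 of 16 that did not pass. The genes that fell most, DDIT4 and TRIB3, had no match in their windows.

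Several probe sets were available for 24 of the 31 members, and in 15 of these all had the same sign. The 6 genes that fell had 15 probe sets, of which 10 were called lower over all 44988 probe sets (12.8% of which were called in either direction) and none had a positive sign. None of the 5 MARS1 probe sets was among those 10, since the adjustment over all probe sets put the brightest at 0.0613. The 3 genes that rose had 13 probe sets, 9 of them called higher, with WARS1 contributing 1 of its 4. Both counts include the brightest probe sets, by which these genes were called, so they are not separate support for the calls. Of the probe sets other than the brightest, 0 of 9 were positive for genes that fell and 9 of 10 for genes that rose. Some members are read by probe sets whose names end in _s_at or _x_at, which can bind related transcripts: ATF4, DDIT3, CEBPB, ATF5, ASNS, PSAT1, PSPH, MARS1, TARS1 and YARS1.

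**Figure D3:**
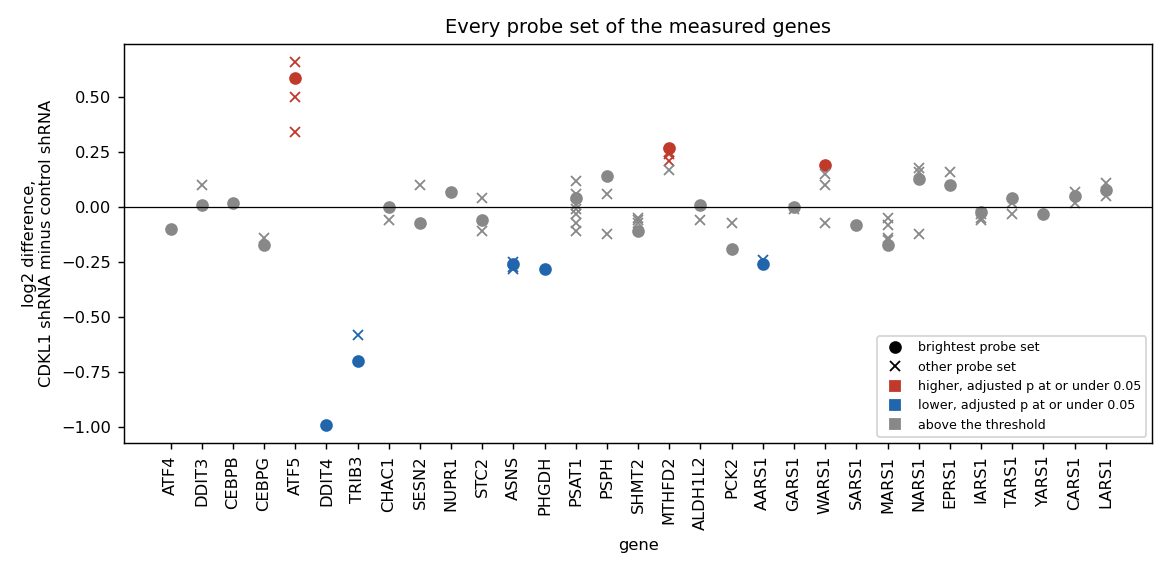
Log2 difference, CDKL1 shRNA minus control shRNA (vertical axis), of each probe set of the 31 genes (horizontal axis); circles are the brightest probe set, crosses the others, and colour marks calls adjusted over all probe sets. Probe sets of ATF5, TRIB3, ASNS, MTHFD2 and AARS1 cluster on 1 side of 0, while those of PSAT1 straddle it.

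The ACTB 3′ minus 5′ difference moved with the groups, by 0.198 on the log2 scale, as did that of GAPDH, by 0.0722, whose part was not tested. The part of ACTB in the results was not tested beyond a fit with it as a covariate. In that fit DDIT4 (-0.92, adjusted p = 0.0144) and TRIB3 (-0.79, adjusted p = 0.0201) were called lower and no member was called higher. ATF5 was at 0.62 (adjusted p = 0.0706), ASNS at -0.25 (adjusted p = 0.215) and PHGDH at -0.28 (adjusted p = 0.155). MTHFD2 was at 0.29 (adjusted p = 0.162), AARS1 at -0.26 (adjusted p = 0.17), WARS1 at 0.15 (adjusted p = 0.376) and MARS1 at -0.16 (adjusted p = 0.369). The log2 differences were thus close to those without the covariate, and the calls of these 7 genes ended. Within groups, the ACTB measure varied mainly through CDKL1 shRNA replicate 2 (1.73, against 1.52 and 1.55), so this fit separates it poorly from the groups. In a fit chosen after seeing the data, that array was left out. The medians of the 4 member groups then moved from 0.05, -0.15, -0.18 and 0.03 to -0.26, -0.6, -0.27 and -0.08. DDIT4, TRIB3, ATF5, ASNS, PHGDH, MTHFD2 and AARS1 passed in each of the 6 fits with 1 array left out.

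The machinery upstream of ATF4 was read from a list of 18 genes. It holds eIF2 kinases, eIF2, its exchange factor eIF2B and the phosphatase adaptors, and also GCN1, IMPACT, DELE1 and OMA1. Of the 18 genes, 6 rose, 1 fell and 11 did not pass, with a median log2 difference of 0.13. The share called was 38.9%, against 16.8% of all genes and 27.8% of genes above the median level, where 17 of the 18 lie. Shares called in the lists below are to be read beside the same values for all genes and for bright genes. EIF2AK3, the PERK gene, rose by 0.62 (SE 0.045, adjusted p = 0.000339), in all 3 of its probe sets. PPP1R15B, the constitutive adaptor that brings phosphatase to eIF2, rose by 0.49 (adjusted p = 0.00121), whereas the ATF4-induced adaptor PPP1R15A differed by 0.04 (adjusted p = 0.616). EIF2AK2, the PKR gene, rose by 0.36, with its other probe set at 0.09 and not called. The eIF2B subunit gene EIF2B1 rose by 0.24. EIF2AK2 lost its call without CDKL1 shRNA replicate 2 (adjusted p = 0.0522) or 3 (adjusted p = 0.0733), and EIF2B1 without CDKL1 shRNA replicate 3 (adjusted p = 0.0522).

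The other called genes of that list were DELE1 (0.24) and EIF2B2 (0.16), which rose, and IMPACT (-0.31), an inhibitor of GCN2 activation, which fell. These 3 and EIF2AK1 were named after their values were seen. IMPACT kept its call only without control shRNA replicate 3 and DELE1 only without control shRNA replicate 2, and EIF2B2 lost its call without any 1 of the 6 arrays. Of the 5 DELE1 probe sets 1 was called and 2 were at -0.09, and their mean differed by 0.05 (adjusted p = 0.51). EIF2AK1 did not pass by its brightest probe set (-0.02), yet 7 of its 8 probe sets were positive. Of the 8, 4 were called higher, up to 0.95, so its call and size depend on the probe set. EIF2AK4, the GCN2 gene, differed by 0.04 (adjusted p = 0.568). With 1 array left out, 2 to 5 genes of the list rose and 0 or 1 fell: 4 and 0 without CDKL1 shRNA replicate 1, 3 and 0 without replicate 2, 2 and 0 without replicate 3. They were 4 and 1 without control shRNA replicate 1, 5 and 0 without replicate 2, and 4 and 1 without replicate 3. With the ACTB covariate EIF2AK3 alone was called (0.57, adjusted p = 0.0408).

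Of 16 other ATF4-linked targets measured, 3 rose and 3 fell (37.5% called), with a median log2 difference of -0.02. HERPUD1, an endoplasmic reticulum degradation factor gene, rose by 0.75 (SE 0.05, adjusted p = 0.00025) in all 4 probe sets, and was also called with the ACTB covariate (0.79, adjusted p = 0.0246). ATF3, a bZIP repressor gene induced by ATF4, rose by 0.42, although 1 of its 7 probe sets was called and it did not pass when they were averaged. TNFRSF10B, the death receptor DR5 gene, rose by 0.24 in 1 of its 3 probe sets, with the others at 0.09 and -0.03. It lost its call without CDKL1 shRNA replicate 3 (adjusted p = 0.0527) and with its probe sets averaged (0.10, adjusted p = 0.155). GADD45A, a growth arrest gene, fell by 0.59 (SE 0.055, adjusted p = 0.000892). The other 2 that fell, named after their values were seen, were EIF4EBP1 (-0.19) and VEGFA (-0.14), and each lost its call without any 1 of the 6 arrays. VEGFA was at -0.02 (adjusted p = 0.781) over the mean of its probe sets. The list thus had 1 gene lower without any 1 array, and without CDKL1 shRNA replicate 3 it had 2 genes higher.

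Of the 8 other cytosolic synthetase and scaffold genes measured, 3 rose and 1 fell, with a median of 0.06. RARS1, for arginine, rose by 0.28 (adjusted p = 0.00834), and FARSA and HARS1 by 0.22 each. FARSB, which encodes the partner subunit of FARSA in the phenylalanine enzyme, fell by 0.31 (adjusted p = 0.0157). Of its 5 probe sets 4 were called lower and 1 was called higher, at 0.79, and their mean differed by -0.07 (adjusted p = 0.402). The FARSA call was lost without CDKL1 shRNA replicate 3 (adjusted p = 0.0603), control shRNA replicate 2 (adjusted p = 0.0564) or control shRNA replicate 3 (adjusted p = 0.0548). HARS1 kept its call only without control shRNA replicate 1 (adjusted p = 0.0148), and its adjusted p was 0.0572 to 0.0737 without any of the others. Of 16 mitochondrial synthetases 1 (6.25%) was called, TARS2, which fell by 0.34 (adjusted p = 0.0123), and the median was -0.05. Without CDKL1 shRNA replicate 3, 2 of 16 were called.

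Among 13 measured genes of the list of other serine, glycine and folate enzymes, 1 rose and 3 fell (30.8% called). This list also holds GLUL, GOT1, GOT2, PYCR1 and ALDH18A1, enzymes of other amino acids, and its only rise was in ALDH18A1. MTHFD1L, the mitochondrial formate-producing enzyme gene, fell by 0.36 (adjusted p = 0.00238) and the cytosolic serine hydroxymethyltransferase gene SHMT1 by 0.28 (adjusted p = 0.00508). MTHFD2L, the close relative of MTHFD2, fell by 0.18 (adjusted p = 0.0406), and lost its call without any 1 of the 6 arrays and with its probe sets averaged (-0.14, adjusted p = 0.0561). ALDH18A1, which starts proline synthesis from glutamate, rose by 0.33 (adjusted p = 0.00999). MTHFD2 thus rose while MTHFD1L and SHMT1, enzymes of the same folate cycle, fell.

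For the other arms of the unfolded protein response, 13 targets of IRE1 and ATF6 were read. Of these, 1 rose and 3 fell (30.8% called), with a median of -0.01. The chaperone genes HSPA5 and HSP90B1, standard reporters of endoplasmic reticulum stress, differed by -0.01 each in their brightest probe sets (adjusted p = 0.92 and adjusted p = 0.927). HSPA5 was negative in 5 of 6 probe sets, down to -0.26, and HSP90B1 in 6 of 7, down to -0.14, with none called. DNAJB9, an IRE1 target, rose by 0.36 (adjusted p = 0.00363), although 1 of its 3 probe sets was at -0.12 and not called. SDF2L1 instead fell by 0.41 (adjusted p = 0.00334). MANF fell by 0.22 (adjusted p = 0.015) and lost its call without CDKL1 shRNA replicate 3 (adjusted p = 0.0524), control shRNA replicate 2 (adjusted p = 0.0553) or control shRNA replicate 3 (adjusted p = 0.0596). SEL1L fell by 0.23 in its brightest probe set, but the other 3 had a positive sign. It lost its call without control shRNA replicate 2 (adjusted p = 0.0546) and with its probe sets averaged (-0.03, adjusted p = 0.773).

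Of 9 amino acid transporters tied to ATF4, 2 rose and 1 fell (33.3% called), with a median of -0.04. SLC7A11 and SLC3A2, the light and heavy chains of the cystine-glutamate exchanger, rose by 0.23 each (adjusted p = 0.0134 and adjusted p = 0.0199). All 3 probe sets of SLC7A11 and all 7 of SLC3A2 had a positive sign, and 2 and 5 of them were called. SLC7A11 lost its call without CDKL1 shRNA replicate 3 (adjusted p = 0.0559). SLC3A2 lost it without CDKL1 shRNA replicate 2 (adjusted p = 0.0645) or 3 (adjusted p = 0.0767) and without control shRNA replicate 2 (adjusted p = 0.0727) or 3 (adjusted p = 0.0583). The cationic amino acid transporter gene SLC7A1 fell by 0.21 (adjusted p = 0.0295), and passed without CDKL1 shRNA replicate 3 (adjusted p = 0.0418) or control shRNA replicate 1 (adjusted p = 0.0422). Its adjusted p was 0.0855 to 0.0989 without any of the other arrays, and 0.0877 with its probe sets averaged. With the ACTB covariate no gene of these last 5 lists was called apart from SDF2L1.

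**Figure D4:**
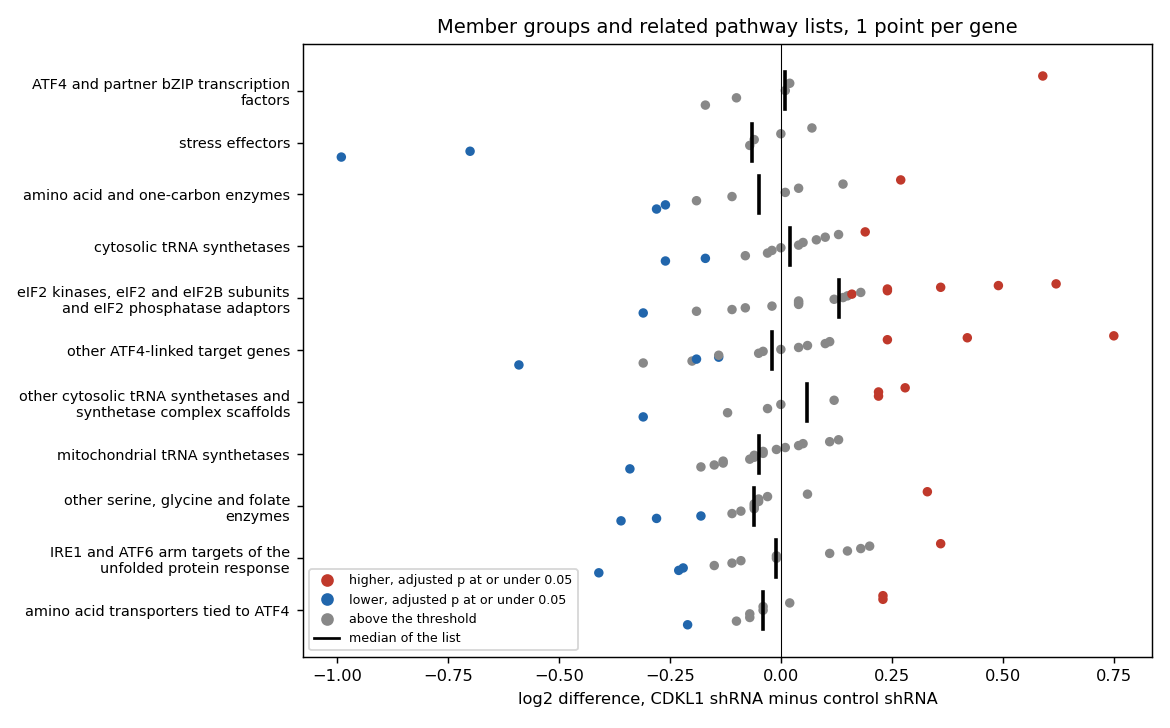
Log2 difference, CDKL1 shRNA minus control shRNA (horizontal axis), of each gene in the 4 member groups and 7 related lists (1 row each, 1 point per gene, vertical bars for list medians). Called genes lie on both sides of 0 in 8 of the 11 lists, and list medians run from -0.07 to 0.13.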

How the data were processed

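Expression was measured on 6 Affymetrix arrays, 3 per group. The authors deposited log2 values summarised by RMA, per the submitters' processing notes (version and settings not given in the sources used here). The 3 replicates of a group are not stated to be separate infections, so p-values reflect only how far these samples spread, possibly for technical reasons, and 6 arrays limit the precision. The genome annotation was used only for names and promoter windows.

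Each array held 49395 probe sets, of which 102 were controls, 44988 had 1 gene symbol, 1832 had several and 2473 had none. The probe set with the highest mean stood for each of 18132 genes. Differences, CDKL1 shRNA minus control shRNA, were tested with limma 3.58.1 (lmFit and eBayes, R 4.3.3) without further normalization, and p-values were Benjamini-Hochberg adjusted over all genes (threshold 0.05). Calls of single probe sets were adjusted over all 44988. The fit was tested on simulated data. Tables used pandas 2.3.3 under Python 3.11.15, and figures matplotlib 3.10.9. GPT2 was not analysed here, and 0 sample columns were left unused.

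The members and lists were chosen with earlier results of these data known. All members are named, with up to 4 called genes of each related list by smallest adjusted p. PPP1R15A, EIF2AK4, HSPA5, HSP90B1 and the genes marked in the text were added after their values were seen. The alternatives were a replicate block, each array left out in turn, quantile normalization, array median subtraction, the mean of probe sets, genes above the median level, a variance trend and a covariate for the ACTB 3′ minus 5′ difference.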

Additional observations from a re-analysis of the deposited data

How the results depend on the processing

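Over 14 alternative settings and 431 member differences, 389 kept their side of the threshold (35 of them changed sign without being called in either fit), 29 lost a call, 11 gained one, and 2 called values changed sign. With 1 array left out, 1633 to 2399 genes were called, with 2 to 3 members higher and 5 to 6 lower. Quantile normalization gave 3 members higher and 8 lower, subtracting array medians 3 and 5, and averaging probe sets 2 and 5. The genes above the median level gave 5 members higher and 8 lower, a variance trend 5 and 9, and the added calls were CEBPG, PCK2, PSPH and NARS1, with ATF4 lower under the variance trend.

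The ACTB covariate left 219 genes called, with 0 members higher and 2 lower. In a fit chosen after seeing the data, with that covariate and without CDKL1 shRNA replicate 2, limma called 0 genes (658 at an unadjusted p under 0.05), 0 members higher and 0 lower. There the log2 differences of WARS1 (-0.03), MARS1 (0.01), EIF2AK2 (-0.00), DELE1 (-0.04), RARS1 (-0.04), MTHFD2L (0.02) and ALDH18A1 (-0.11) turned sign. That fit has 5 arrays by construction, and any other cause was not tested.

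The labels do not say whether same-numbered samples belong together. Same-numbered arrays had deviation correlations of -0.03, -0.12 and 0.07, which cannot settle this with 3 arrays per group. With the replicate block 1803 genes were called, with 2 members higher and 5 lower. Array signal limits what can be said of STC2 and CDKL1, which lay within the background controls.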
